A study of Mus musculus with 9 samples.

Results

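The noncoding transcripts of mouse bone marrow-derived macrophages were taken as every gene symbol listed only with RefSeq accessions for noncoding transcripts (prefix NR_) and never with a coding accession (prefix NM_) in any of the 9 deposited tables. Symbols of small nucleolar RNAs and of microRNA hairpins were left out, except microRNA host genes. The rule kept 2247 of 22376 symbols, with 2623 of 35131 transcripts. Between 1100 and 1583 of them were listed in a library, and 748 were listed in all 9. The label "long noncoding RNA" did not hold for every member. RefSeq classes 1895 as lncRNA, 285 as pseudogenes, 30 as small or structural RNA and 22 as protein-coding, and 15 had no entry. Of the members, 26 had fewer than 200 exonic bases. The span of 754 members overlapped the span of a coding gene, 641 of them on the opposite strand, and the exons of 508 overlapped coding exons. The libraries are not stated to keep the strand, so at these places reads of the noncoding and the coding transcript cannot be told apart. Members are therefore described with their overlap.

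Marrow of wild-type C57Bl/6 mice had been cultured in bags with 10 ng/ml of the macrophage growth factor M-CSF for 1 week. Then 50000 washed cells were plated for 48 hours with 100 µg/ml of antibody BE0101 to PD-L1 (libraries PD-L1 1, 2 and 3), with the isotype-matched antibody BE0090 (isotype 4, 5 and 6), or with no antibody (untreated 7, 8 and 9). PD-L1 is a surface ligand best known for engaging the PD-1 receptor of T cells, and macrophages carry it too. RNA was primed with oligo(dT) and sequenced as paired reads of 150 bases. Nothing in the labels ties a library to an animal or a culture of its own, so a p-value here reflects how much these 9 samples vary, and that variation may be technical.

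Long noncoding RNAs are transcribed and often spliced like messenger RNAs but are not known to be translated into a conserved protein. Some act at the chromatin of their own chromosome (Xist, Kcnq1ot1), some build nuclear bodies (Neat1), and some are host genes whose introns or exons are cut into microRNAs or small nucleolar RNAs. In macrophages several are induced by microbial stimuli, among them Ptgs2os2, known as lincRNA-Cox2, and Mir155hg, the precursor of miR-155.

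Expression is given as exonic read equivalents (average coverage times exon length, divided by the read length), scaled to CPM (counts per 1000000). The libraries held 23554320 to 40116467 exonic read equivalents, so 1 read equivalent was worth 0.0247 to 0.0446 CPM. Members took 1.366 to 1.482% of the exonic read equivalents in the PD-L1 libraries and 1.615 to 1.87% in the other 6, and the 10 highest members held 55.7 to 64.9% of the members' CPM. Summed macrophage markers ran from 12233 to 14133 CPM in the PD-L1 libraries, 7322 to 7905 in the isotype and 7304 to 8473 in the untreated ones, with all 7 markers tested. The 10 markers of neutrophils and their precursors summed to 356 to 498, 681 to 1277 and 513 to 711 CPM, and 5 erythroid markers to 1.12 to 2.18, 3.53 to 7.39 and 6.21 to 7.91 CPM. In the same order of groups 7 dendritic cell markers summed to 403 to 462, 319 to 536 and 270 to 519 CPM, and no marker of these lists was at 0. The part of these cells in the noncoding changes was not tested, and in bulk RNA fewer cells of a type and less RNA per cell cannot be told apart. Untreated 7 stood apart from untreated 8 and 9 and lay nearer to the isotype libraries: between isotype and untreated libraries 0 members differed with it and 64 without it.

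The sequences of 5 members that rose with the PD-L1 antibody and overlap no coding gene are shown at their start sites, since no annotated coding gene lies over them. The windows are RefSeq promoters on GRCm38.p6, from 250 bases before to 50 bases after the start, on the strand of the gene. Capitals mark matches, on either strand, to NF-kB letters (GGGNNTTTC or GGGANTTCC), interferon response letters (GAAANNGAA), AP-1 letters (TGANTCA) or C/EBP letters (TTGCNNAA). U90926 lies at chr5:92215359-92215658 on the minus strand and holds none of them. AW112010 lies at chr19:11050517-11050816 on the minus strand. The window of 1110002J07Rik is chr10:66920335-66920634, also minus. Ptgs2os2 lies at chr1:150164899-150165198 on the minus strand, and Mir155hg at chr16:84712773-84713072 on the plus strand.
U90926: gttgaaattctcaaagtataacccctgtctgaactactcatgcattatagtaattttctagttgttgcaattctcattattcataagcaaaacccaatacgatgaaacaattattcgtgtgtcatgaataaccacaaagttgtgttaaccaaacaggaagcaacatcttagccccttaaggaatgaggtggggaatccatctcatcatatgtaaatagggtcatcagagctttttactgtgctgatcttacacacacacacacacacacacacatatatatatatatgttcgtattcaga
AW112010: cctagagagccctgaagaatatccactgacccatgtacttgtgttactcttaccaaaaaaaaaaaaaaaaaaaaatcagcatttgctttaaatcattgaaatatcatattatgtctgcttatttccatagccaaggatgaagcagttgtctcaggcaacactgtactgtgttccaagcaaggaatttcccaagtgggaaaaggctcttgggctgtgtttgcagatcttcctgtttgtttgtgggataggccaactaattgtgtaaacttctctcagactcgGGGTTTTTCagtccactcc
1110002J07Rik: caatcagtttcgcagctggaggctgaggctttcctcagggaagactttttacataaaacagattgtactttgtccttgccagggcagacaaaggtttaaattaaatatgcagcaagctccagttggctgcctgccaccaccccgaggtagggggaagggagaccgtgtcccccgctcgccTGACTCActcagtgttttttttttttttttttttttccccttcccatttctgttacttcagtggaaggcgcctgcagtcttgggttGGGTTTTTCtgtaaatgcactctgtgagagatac
Ptgs2os2: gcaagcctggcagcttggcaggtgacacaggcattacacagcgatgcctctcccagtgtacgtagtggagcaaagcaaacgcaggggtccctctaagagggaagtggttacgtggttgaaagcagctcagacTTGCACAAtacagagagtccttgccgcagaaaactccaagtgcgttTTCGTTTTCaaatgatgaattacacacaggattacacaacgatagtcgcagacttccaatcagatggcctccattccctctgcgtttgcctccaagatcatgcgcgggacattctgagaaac
Mir155hg: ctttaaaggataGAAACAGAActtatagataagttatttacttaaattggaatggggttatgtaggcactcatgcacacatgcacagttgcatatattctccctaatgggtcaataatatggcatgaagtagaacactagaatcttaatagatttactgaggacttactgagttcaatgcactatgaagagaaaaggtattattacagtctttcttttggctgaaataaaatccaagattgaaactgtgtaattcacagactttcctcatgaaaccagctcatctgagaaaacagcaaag

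Among these windows the NF-kB letters start 31 bases after the start of AW112010 and 16 bases after that of 1110002J07Rik. A match is a run of letters, not a bound site, and such runs are common. Only the letters given above were searched, so other forms of these sites would stand in lower case. Of 27025 promoter windows, 1 per gene, 5.96% held the NF-kB letters, 8.57% the interferon response letters, 7.93% the AP-1 letters and 10.8% the C/EBP letters. Of the 442 windows of tested members, 8.37%, 6.33%, 7.01% and 7.24% held them, in the same order. Of the 51 windows of members higher with the PD-L1 antibody than with the isotype antibody, 9.8%, 15.7%, 11.8% and 11.8% held them, or 5, 8, 6 and 6 windows. Of the 61 windows of members lower, 9.84%, 6.56%, 6.56% and 6.56% did. These shares are descriptions of small sets.

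With the PD-L1 antibody, 82 of 662 tested members rose and 92 fell against the isotype antibody (limma on log2(CPM + 1), Benjamini-Hochberg adjusted p under 0.05 over all genes). That is 26.3% of the tested members, beside 36.4% of all 13728 tested genes. Against no antibody, 90 members rose and 129 fell, or 33.1%, beside 42.5% of all tested genes. By direction, the share of all genes called higher and lower was 18.2% and 18.2% against the isotype antibody and 22.0% and 20.5% against none. The median change of the tested members was -0.060 on the log2 scale against the isotype antibody and -0.045 against no antibody, with -0.015 and -0.012 over all tested genes. At least 2-fold changes were called for 26 members up and 20 down against the isotype antibody. The shares of all genes given above have no 2-fold limit, so they are no measure for these counts. The log2(CPM + 1) scale understates the change of low genes, and the other 1585 members were too low to be tested. The calls leaned further to lower with library scaling by total count, which shifts the median of all genes by -0.14: 57 members were then higher and 146 lower than with the isotype antibody. In the 220 tested members of the RefSeq lncRNA class with no coding overlap, 22 rose and 31 fell against the isotype antibody, and 24 rose and 49 fell against no antibody.

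**Figure D1:**
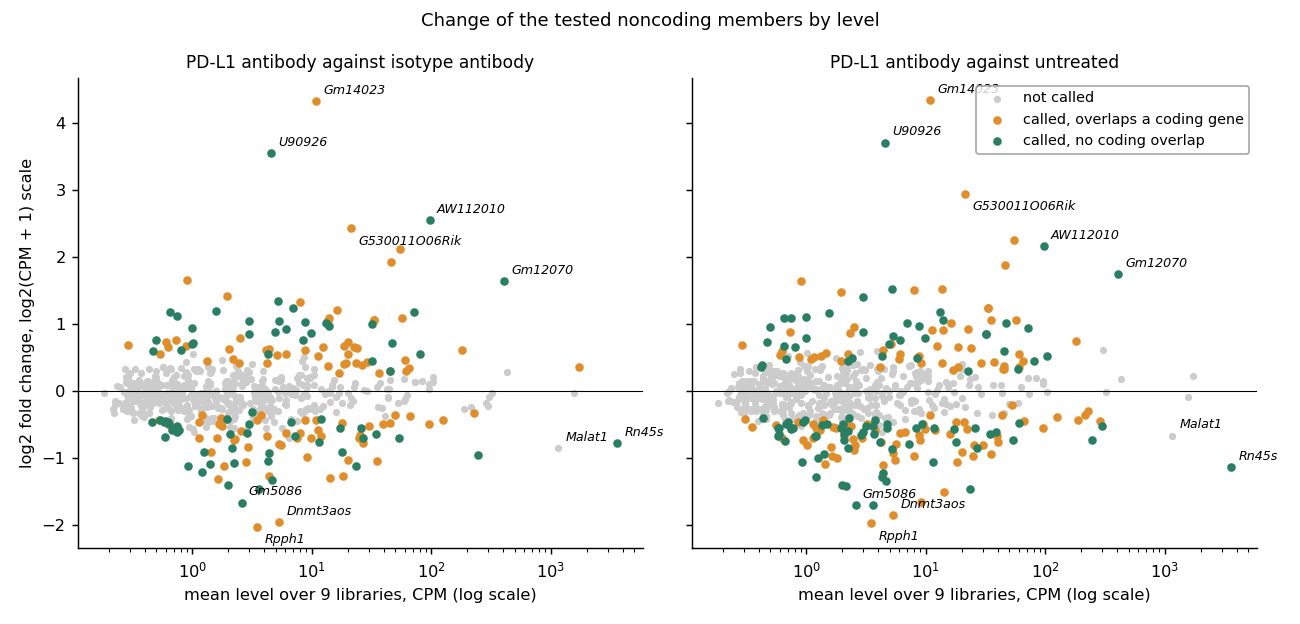
Each point is 1 of the 662 tested members, with its mean level over the 9 libraries in CPM (log axis) and its difference on the log2(CPM + 1) scale between PD-L1 antibody and isotype antibody (left) or no antibody (right). Coloured points passed the limma threshold, green without and orange with overlap of a coding gene; 82 lie above and 92 below 0 at the left, and 90 and 129 at the right.

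The largest rise of all members belonged to Gm14023, at chr2:129297370-129307826 on GRCm38, plus strand. It measured 30.0, 27.5 and 36.0 CPM in the PD-L1 libraries, 0.693, 0.508 and 0.593 in the isotype libraries and 0.724, 0.514 and 0.504 in the untreated ones. The 3 PD-L1 libraries stood far above the other 6, with differences of 4.32 ± 0.13 (SE, adjusted p = 7.4e-09) and 4.34 on the log2 scale. Gm14023 runs opposite to Il1a, which encodes the cytokine interleukin-1 alpha: 78.58% of its span and 12.46% of its exonic bases lie on Il1a. Il1a itself rose by 5.14 on the log2 scale against the isotype antibody, from a mean of 1.38 ± 0.289 to 83.7 ± 17.8 CPM (SD, n = 3). Only 20.0 to 20.2% of the exonic bases of Gm14023 reached 20-fold coverage in the PD-L1 libraries and 0 in the others, so deep coverage was limited to a minor share of its exons. Il1b, the gene of interleukin-1 beta, lies 56751 bases further on and rose by 4.14.

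U90926 had the largest rise among members without coding overlap. It measured 11.3, 12.3 and 16.7 CPM with the PD-L1 antibody, 0.391, 0.203 and 0.0916 with the isotype antibody and 0.211, 0.0391 and 0.0494 with none. The untreated values are a handful of reads at most, and every PD-L1 library lay far above every other. The differences were 3.54 ± 0.16 (adjusted p = 6.9e-08) and 3.70 on the log2 scale. From 62.6 to 64.2% of its 522 exonic bases reached 20-fold coverage in the PD-L1 libraries and 0 elsewhere.

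AW112010, described in activated macrophages as a transcript that also yields a small protein, is another riser outside coding genes. Its levels were 213, 238 and 175 CPM with the PD-L1 antibody, 46.7, 31.6 and 28.7 with the isotype antibody and 38.2, 44.3 and 56.2 with none. The groups did not overlap, and the differences were 2.54 ± 0.19 (adjusted p = 2.4e-06) and 2.16. The less studied 1110002J07Rik was also higher in every PD-L1 library: 8.32, 11.9 and 8.85 CPM against 2.44, 3.36 and 3.84 and against 2.52, 2.94 and 2.59. Its differences were 1.34 ± 0.16 (adjusted p = 8.8e-05) and 1.52.

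Of the 18 members described in macrophage or leukocyte activation, 15 were tested. Against the isotype antibody 5 rose and 3 fell, with a median of -0.18, and against no antibody 4 rose and 4 fell. Of all tested genes, 18.2% were called higher and 18.2% lower against the isotype antibody, and 22.0% and 20.5% against none. The list is small, and its share was not tested. Ptgs2os2, or lincRNA-Cox2, measured 1.45, 2.24 and 1.13 CPM with the PD-L1 antibody, 0.196, 0 and 0.215 with the isotype antibody and 0.355, 0.114 and 0.158 with none. All PD-L1 values were above all others, and the differences were 1.18 ± 0.17 (adjusted p = 3.2e-04) and 1.09. Ptgs2, which encodes the prostaglandin enzyme COX-2 and lies 50808 bases away, rose by 3.72 and 3.89.

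Gm14005 is named Morrbid in RefSeq, a transcript described as holding down the pro-death gene Bcl2l11 in short-lived myeloid cells. It measured 3.33, 2.81 and 3.04 CPM with the PD-L1 antibody, 0.933, 0.713 and 0.682 with the isotype antibody and 1.37, 0.524 and 0.673 with none. It rose by 1.19 ± 0.17 (adjusted p = 2.5e-04) and 1.16, with no overlap between groups. Bcl2l11, 209560 bases away, was not called, at 176 ± 6.98 against 190 ± 5.54 CPM (SD, n = 3; difference -0.11, adjusted p = 0.222 by limma).

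Mir155hg rose unevenly. It measured 1.10, 1.83 and 3.27 CPM with the PD-L1 antibody, 0.886, 0.152 and 0.655 with the isotype antibody and 0.514, 0.135 and 0.503 with none. PD-L1 3 was highest and PD-L1 1 lay close to isotype 4, and the difference of 0.94 ± 0.26 (adjusted p = 0.0155) was no longer called without PD-L1 3, without isotype 5 or on reads over the whole span. Against no antibody it was 1.10 ± 0.26 (adjusted p = 0.00593), and this call too was lost on reads over the whole span.

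The activation list also held members that fell. Dnmt3aos, transcribed opposite to the DNA methyltransferase gene Dnmt3a and described in alternatively activated macrophages, measured 1.22, 1.36 and 0.99 CPM with the PD-L1 antibody. It measured 6.15, 7.55 and 8.99 with the isotype antibody and 10.3, 5.97 and 5.38 with none. It fell by 1.96 ± 0.21 (adjusted p = 3.3e-05) and by 1.86 on the log2 scale, without overlap between groups. It lies wholly within Dnmt3a, with 9.6% of its exonic bases on Dnmt3a exons, and Dnmt3a fell by 1.32 and 1.14. Gm15441, opposite to the thioredoxin inhibitor gene Txnip, fell by 0.37 ± 0.10 (adjusted p = 0.0130) against the isotype antibody and was not called against none (adjusted p = 0.126). Its call was lost without PD-L1 1 or isotype 5 and on reads over the whole span. Txnip covers 36.66% of its exonic bases and fell by 0.42.

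Ttc39aos1, known as lincRNA-EPS, a restrainer of inflammatory genes, was not called against the isotype antibody (difference -0.38, adjusted p = 0.0735) and was called lower against none (difference -0.43 ± 0.15, adjusted p = 0.0445). All its values were under 1.51 CPM, and the call was lost without any 1 of 6 libraries (PD-L1 1, 2 or 3, isotype 6, untreated 7 or 9). It was also lost with limma-voom and on reads over the whole span. Trp53cor1, or lincRNA-p21, measured 4.22 ± 1.15, 4.24 ± 0.767 and 4.31 ± 0.317 CPM (SD, n = 3) in the PD-L1, isotype and untreated groups. Rps15a-ps4, the pseudogene RNA Lethe, had means of 16.2 ± 2.02, 18.5 ± 1.34 and 18.9 ± 3.57 CPM. The groups of both overlapped.

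**Figure D2:**
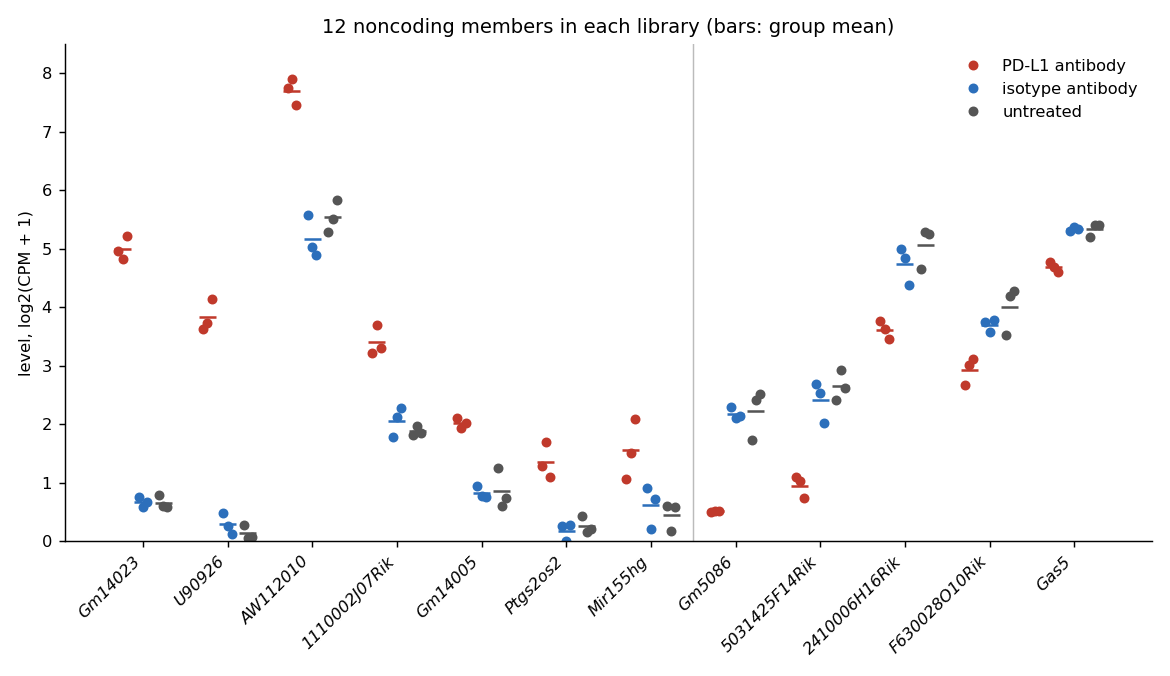
Levels of 12 members on the log2(CPM + 1) axis, 1 point per library, with a bar at the mean of each group of 3. The 7 members at the left are higher in every PD-L1 library than in any other library, and the 5 at the right are lower.

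Several other large rises sat inside coding genes. G530011O06Rik, within Mid1 and with 39.96% of its exonic bases on Mid1 exons, measured 46.4, 60.7 and 40.8 CPM against 14.9, 7.04 and 5.19 and against 3.51, 6.24 and 7.32. Its differences were 2.42 ± 0.32 (adjusted p = 1.6e-04) and 2.94, while those of Mid1, which encodes a ubiquitin ligase, were 0.69 (adjusted p = 0.0522) and 0.90. The noncoding row thus had the larger differences; the gap to Mid1 was not tested. 1700071M16Rik lies within Pla2g7, the gene of a secreted phospholipase, and its difference of 1.92 was close to the 1.91 of Pla2g7. From 17.4 to 20.4% of its exonic bases reached 20-fold coverage in the PD-L1 libraries, where coding exons cover 12.74%. Gm14207 overlaps the Notch ligand gene Dll4 and differed by 1.65, with Dll4 at 3.69. Gm11110 touches Tnfsf9, the gene of the 4-1BB ligand, and differed by 1.41, with Tnfsf9 at 1.85. C920009B18Rik lies within the spans of Raet1a, Raet1b and Raet1c, which encode ligands of the NK cell receptor NKG2D, and differed by 1.06 and 1.51.

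The large falls were mostly in uncharacterised transcripts. Gm5086 measured 0.411, 0.43 and 0.437 CPM with the PD-L1 antibody, 3.89, 3.32 and 3.4 with the isotype antibody and 2.32, 4.33 and 4.7 with none. Every PD-L1 library was far below every other, and the differences were -1.67 ± 0.19 (adjusted p = 4.8e-05) and -1.71. Its nearest coding gene Enc1 lies 306959 bases away and had a difference of -1.80. 5031425F14Rik, also free of coding overlap, fell by 1.46 and 1.71, from means of 4.42 ± 1.23 and 5.38 ± 1.17 to 0.945 ± 0.245 CPM (SD, n = 3). Its nearest coding gene, Prex1, 107574 bases away, rose by 0.59 and 0.60.

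2410006H16Rik had a higher level per kilobase of exon, 51.1 CPM beside 1.99 for Gm5086. It measured 12.6, 11.3 and 9.92 CPM with the PD-L1 antibody, 30.9, 27.8 and 19.8 with the isotype antibody and 24.3, 38.2 and 36.9 with none. It fell by 1.13 ± 0.19 (adjusted p = 8.6e-04) and 1.46, and its neighbour Lrrc75a, 77 bases away, was not called (difference 0.12, adjusted p = 0.508). AA388235, 2610035D17Rik and 2900052L18Rik, all without coding overlap, differed by -1.40, -1.33 and -0.86 against the isotype antibody and by -1.41, -1.35 and -1.42 against none. The call for AA388235 was lost on reads over the whole span in both comparisons.

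Other falls lay on coding genes that fell too. 4930447F24Rik within Bsn differed by -1.32 (Bsn by -1.17), A430088P11Rik within Fam83f by -1.28 (Fam83f by -1.38) and Gm19582 within Dgkd by -1.27 (Dgkd by -1.30). E230016M11Rik shares 19.1% of its exonic bases with the DNA damage gene Gadd45a. It differed by -1.31 and -1.51, and Gadd45a by -1.32 and -1.71. Against no antibody, 4933439C10Rik, on Zkscan17, was among the largest falls at -1.66, with Zkscan17 at -1.03.

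Host genes of small nucleolar RNAs, whose spliced exons are often rapidly degraded while the introns yield guides for ribosomal RNA modification, had calls in 1 direction. Of 19 on the list 17 were tested; none rose, 4 fell against the isotype antibody (median -0.28) and 10 fell against none (median -0.50). That is 23.5% and 58.8% of those tested, beside 18.2% and 20.5% of all tested genes called lower, so the share against the isotype antibody was near that of all genes. Gas5, which also is described as a decoy of the glucocorticoid receptor, measured 26.3, 24.8 and 23.2 CPM with the PD-L1 antibody, 38.4, 40.2 and 39.2 with the isotype antibody and 35.6, 41.3 and 41.2 with none. It was lower in every PD-L1 library, by 0.64 ± 0.09 (adjusted p = 1.9e-04) and 0.65 ± 0.09 (adjusted p = 1.7e-04).

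The other 3 hosts that fell in both comparisons were Epb41l4aos, Snhg7 and Snhg1. Epb41l4aos differed by -0.93 and -1.23, Snhg7 by -0.59 and -0.50, and Snhg1 by -0.32 (adjusted p = 0.0471) and -0.53. Slc3a2, the amino acid transporter subunit gene 117 bases from Snhg1, rose by 0.73 against the isotype antibody. The call for Snhg1 against the isotype antibody was lost with limma-voom, edgeR, DESeq2 and a pseudocount of 0.25 CPM. It was also lost without any 1 PD-L1 or isotype library, untreated 8 or untreated 9. The Snhg7 call in this comparison was lost without PD-L1 3 or isotype 6. Zfas1 was not called against the isotype antibody (difference -0.38, adjusted p = 0.0615) and fell by 0.77 against none, with values of 31.1, 33.7 and 25.5 CPM beside 43.9, 53.8 and 57.8. Znfx1, the antiviral helicase gene opposite to Zfas1, rose by 0.60 and 0.81. Snhg20, Snhg8, Snhg15, Snhg3 and Snhg4 were called lower against no antibody only; whether the comparisons differed was not tested. The calls for Snhg15, Snhg3 and Snhg4 were each lost without at least 1 library, which was PD-L1 3 or untreated 8 for Snhg15, PD-L1 1, PD-L1 2, untreated 8 or untreated 9 for Snhg3, and PD-L1 1, PD-L1 2 or untreated 9 for Snhg4. The Snhg4 call was also lost on reads over the whole span. For Snhg7 the call against none was lost with edgeR and without PD-L1 1, PD-L1 3, untreated 8 or untreated 9.

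The number of host genes called lower was 2 without isotype 6 in the comparison with the isotype antibody. In the comparison with untreated libraries it was 12 without untreated 7 and 7 without PD-L1 1, untreated 8 or untreated 9. With scaling by total count it was 10 and 12.

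**Figure D3:**
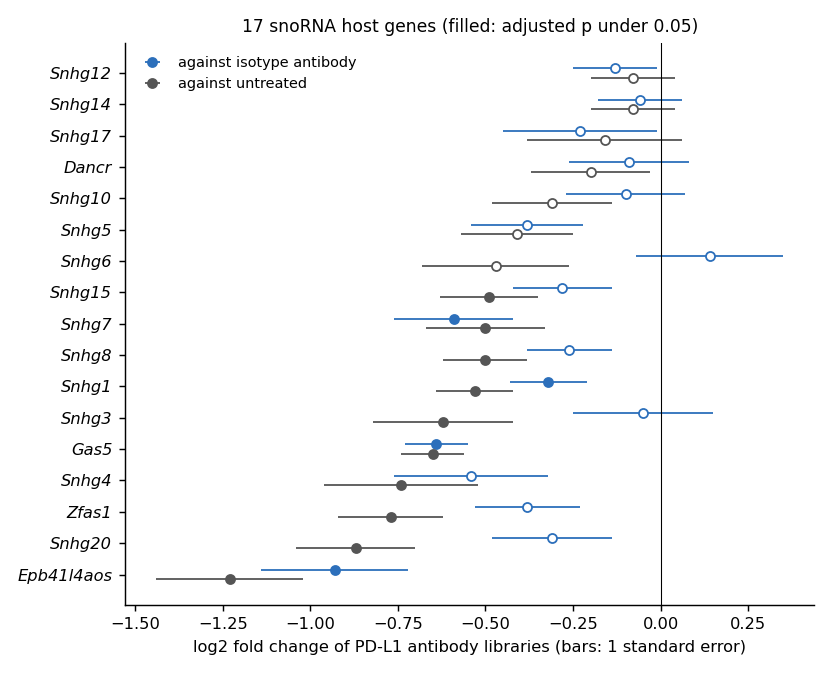
Differences of the 17 tested small nucleolar RNA host genes on the log2(CPM + 1) scale between PD-L1 antibody and isotype antibody and between PD-L1 antibody and no antibody, with bars of 1 SE. Filled points passed the limma threshold; the 4 and 10 filled points all lie below 0.

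Host genes of microRNAs were found by position: 16 tested members of the lncRNA class hold a RefSeq hairpin on their own strand. Against the isotype antibody 2 were higher and 1 was lower, beside 18.2% and 18.2% of all tested genes. Against no antibody 1 was higher and 4 were lower, beside 22.0% and 20.5% of all tested genes. Mir99ahg, on the fixed list of microRNA host genes but not among these 16, was called lower against the isotype antibody. That call was lost without PD-L1 3 or isotype 6. Over the alternatives its differences ran from -1.65 to -0.40 against the isotype antibody and from -2.35 to -0.48 against none. For each of the 16 called in either comparison, a mature microRNA is shown with the seed, bases 2 to 8, in capitals. The host of miR-322-5p was not called, and this microRNA is shown for the seed it shares with miR-16-5p. Mature microRNAs lack a poly(A) tail and were not measured here, only the host transcripts.
miR-155-5p: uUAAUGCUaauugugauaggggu
miR-22-3p: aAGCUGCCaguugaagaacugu
miR-223-3p: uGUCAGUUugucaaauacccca
miR-101a-3p: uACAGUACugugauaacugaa
miR-6516-5p: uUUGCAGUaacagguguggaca
miR-16-5p: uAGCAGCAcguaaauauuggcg
miR-322-5p: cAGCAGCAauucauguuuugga

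Among those shown, the first 5 have seeds of their own, and miR-16-5p and miR-322-5p share 1 seed. The host of miR-155-5p is Mir155hg, described above. Mir22hg measured 21.5, 27.7 and 23.5 CPM with the PD-L1 antibody, 15.5, 13.9 and 19.4 with the isotype antibody and 15.5, 19.4 and 23.1 with none. Its rise of 0.55 ± 0.16 (adjusted p = 0.0199) was seen against the isotype antibody; against none the groups overlapped (difference 0.32, adjusted p = 0.131). It was lost without PD-L1 2, isotype 4 or isotype 5, with scaling by total count and on span reads.

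F630028O10Rik holds the hairpin of miR-223, a microRNA abundant in granulocytes and other myeloid cells. It measured 5.36, 7.11 and 7.62 CPM with the PD-L1 antibody, 12.4, 10.9 and 12.7 with the isotype antibody and 10.5, 17.3 and 18.4 with none. All PD-L1 libraries were lower, by 0.77 ± 0.19 (adjusted p = 0.00899) and 1.07 ± 0.19 (adjusted p = 0.00108). Markers of neutrophils and their precursors were lower in the PD-L1 libraries too, as given above, and their part in this fall was not tested. Dleu2, host of miR-16-5p, and E130102H24Rik, host of miR-101a-3p, differed by -0.50 (adjusted p = 0.0440) and -0.68 (adjusted p = 0.0167) against no antibody. The call for Dleu2 was lost without any 1 PD-L1 library, isotype 5, untreated 8 or untreated 9, and on reads over the whole span. Snhg20, host of miR-6516-5p, differed by -0.87 (adjusted p = 0.00166) against no antibody. C430049B03Rik, which holds miR-322, was not called (differences 0.35 and 0.23).

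Some noncoding RNAs of X inactivation and imprinting coat or silence stretches of 1 chromosome copy. Of 13 listed RNAs of this kind, 9 were tested. Against the isotype antibody 1 rose and 3 fell, beside 18.2% and 18.2% of all tested genes. Against none 2 rose and 3 fell, beside 22.0% and 20.5% of all tested genes. With so few members these counts are a description only. Peg13, an imprinted transcript within Trappc9, measured 12.3, 10.2 and 12.9 CPM with the PD-L1 antibody, 25.4, 24.4 and 25.2 with the isotype antibody and 19.4, 27.7 and 22.3 with none. It fell by 1.03 ± 0.13 (adjusted p = 1.2e-04) and 0.91 with no overlap between groups, whereas Trappc9 was not called (difference 0.11, adjusted p = 0.356). Firre, an X-linked organiser of nuclear contacts, fell by 0.92 and 0.76, and its call against no antibody was lost on reads over the whole span. Kcnq1ot1, which silences its imprinted cluster, fell by 0.80 ± 0.25 (adjusted p = 0.0280) and 0.93, with isotype 6 (8.67 CPM) and untreated 7 (8.95) highest. Its call against the isotype antibody was lost with limma-voom and without PD-L1 2, PD-L1 3, isotype 5 or isotype 6, and that against none without PD-L1 2.

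Airn, opposite to the imprinted Igf2r, showed a direction that depended on the measure: 0.66 and 0.51 on exons, but -0.40 and -0.36 on deposited reads over its whole span. The exon call against no antibody was lost without PD-L1 2, untreated 8 or untreated 9. Igf2r was not called (differences -0.02 and 0.25). Xist, the RNA that coats the inactive X chromosome, measured 274, 339 and 379 CPM with the PD-L1 antibody, 267, 333 and 480 with the isotype antibody and 333, 154 and 192 with none. The groups overlapped (adjusted p = 0.821 and 0.0903). Tsix runs opposite to Xist over part of its span and had the same order of untreated libraries, 42.8, 12.4 and 13.6 CPM. The libraries are not stated to keep the strand, so reads of Tsix and Xist cannot be told apart there. Over all libraries 39.5 to 44.8% of the exonic bases of Tsix reached 20-fold coverage and 45.5 to 51.6% reached 1-fold. The call for Tsix against no antibody (difference 1.05, adjusted p = 0.0403 by limma) did not hold with edgeR or DESeq2. It also did not hold without any 1 PD-L1 library, isotype 5, untreated 8 or untreated 9. It was also lost with scaling by total count or upper quartile and on reads over the whole span.

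Of 9 tested nuclear-body, scaffold and widely expressed RNAs, none was called against the isotype antibody by limma, edgeR, DESeq2 or limma-voom, with 1 at an unadjusted p under 0.05 by limma. Against no antibody 2 rose and 1 fell. Of all tested genes, limma called 36.4% against the isotype antibody and 42.5% against none. Neat1, the scaffold of paraspeckles, measured 223, 239 and 279 CPM with the PD-L1 antibody, 254, 271 and 349 with the isotype antibody and 352, 312 and 409 with none. The fall of 0.53 ± 0.14 (adjusted p = 0.00997) was called against the untreated libraries only, with -0.23 (adjusted p = 0.228) against the isotype ones. In every library 15.2 to 15.3% of its 20769 exonic bases reached 20-fold coverage, or 3163 to 3174 bases, and 32.7 to 73.2% reached 1-fold coverage, so deep coverage had the same small extent in all groups.

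Malat1, a nuclear speckle RNA, was not called: it measured 543, 646 and 1176 CPM with the PD-L1 antibody, 1133, 1078 and 2036 with the isotype antibody and 1825, 928 and 977 with none (adjusted p = 0.0683 and 0.136). PD-L1 3, isotype 6 and untreated 7 were the highest of their groups. Norad, listed as 2900097C17Rik and known to bind Pumilio proteins, stayed within 305 to 334 CPM in all 9 libraries. Tug1 was called against no antibody (difference 0.32, adjusted p = 0.0343 by limma). The call was lost with scaling by total count or upper quartile, on reads over the whole span, and without PD-L1 2, PD-L1 3 or untreated 8.

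Structural RNAs lack poly(A) tails, so their level here is not their abundance in the cell. Of 18 listed, 3 were tested. Rpph1, the RNA of ribonuclease P, measured 0.555, 0.395 and 0.412 CPM with the PD-L1 antibody, 2.51, 7.27 and 6.17 with the isotype antibody and 4.2, 5.18 and 4.81 with none, a fall of 2.03 ± 0.26 (adjusted p = 1.3e-04) and 1.98. The exons of Ccnb1ip1 cover 73.04% of it. Rn45s, the precursor of ribosomal RNA, measured 2233, 1904 and 2418 CPM with the PD-L1 antibody, 3476, 4377 and 3447 with the isotype antibody and 4596, 4985 and 4773 with none. It fell by 0.78 ± 0.14 (adjusted p = 0.00153) and 1.14. Its part in the lower share of members in the PD-L1 libraries was not tested.

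Rows of processed pseudogenes, copies of coding genes, were among the most abundant per kilobase of exon: Gm1821 (RefSeq Ubb-ps) had 2422 CPM per kb and Atp6v0c-ps2 had 1388, beside 614 for Rn45s and 165 for Malat1. The rows of Gm1821 and Atp6v0c-ps2 lie on the spans of the genes they copy, Ubb and Atp6v0c. Atp6v0c-ps2 had a mean of 1552 CPM beside 1557 for Atp6v0c, with differences of -0.04 and -0.09 for each. Gm1821 had 1703 CPM beside 3463 for Ubb, with differences of 0.35 and 0.22 beside 0.34 and 0.22. Such rows repeat a coding gene, so their levels are not those of a separate noncoding RNA. Of 108 tested pseudogene members, 47 overlapped the span of any coding gene, which need not be the gene they copy. The copied gene was found by symbol for 22, and 7 of these rows lay on its span. Of all tested members, 17 were placed on another chromosome than their RefSeq gene. Gm5424 is listed on chromosome 2 over Ass1, which encodes argininosuccinate synthase, while RefSeq has it on chromosome 10. It measured 122, 106 and 116 CPM with the PD-L1 antibody and 26.5, 25.6 and 25.2 with the isotype antibody, and its difference of 2.11 equals that of Ass1. Gm12070 overlaps no coding gene and measured 749 ± 83.3, 239 ± 14.8 and 223 ± 20.9 CPM (SD, n = 3). Its differences of 1.64 and 1.74 stood beside 1.69 and 1.77 for the glycolysis gene Gapdh, for which many near copies exist. How reads were divided between such copies is not given in the sources used here, so pseudogene values are uncertain. The 108 tested pseudogene members had 19 higher and 14 lower calls against the isotype antibody. Of all tested genes, 18.2% were called higher and 18.2% lower in that comparison.

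Members that overlap coding spans mostly moved with the coding gene. In 329 tested pairs, 94 members were called against the isotype antibody and 87 of them had the sign of their coding gene; both were called in 73 pairs, 72 in 1 direction. Across these pairs the differences had Pearson's r = 0.80 and Spearman's rho = 0.70, a description across genes that share reads and are not independent. In the 43 pairs whose exons do not overlap, r was 0.63 and rho 0.52, and 13 of 17 called members had the sign of the coding gene. The exception against the isotype antibody was Gm16845, named here after its value was seen, which fell by 0.63 while Zfp653, which it overlaps, rose by 0.35. Against no antibody 77 of 81 pairs moved in 1 direction, and the other 4 were Gm16845, 3010003L21Rik, Dleu2 and Zfas1, of which 3010003L21Rik too was named for this. Of 48 tested pairs of an opposite-strand transcript and the coding gene in its name, 11 transcripts were called against the isotype antibody and 10 had the sign of that gene; against no antibody 15 were called and 12 had it.

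**Figure D4:**
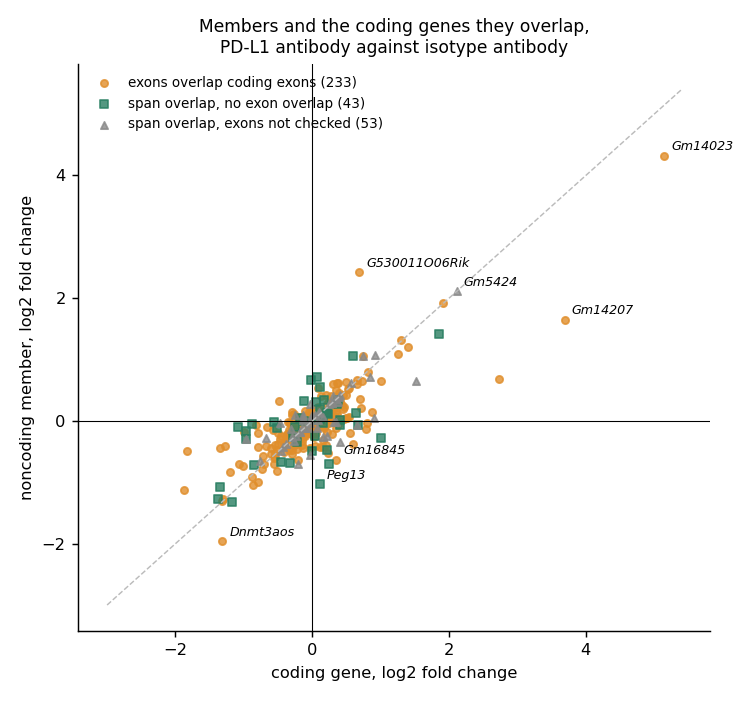
Difference between PD-L1 and isotype antibody for 329 members (vertical) against that of the coding gene whose span they overlap (horizontal), both on the log2(CPM + 1) scale. Most points lie along the diagonal, and 72 of the 73 pairs with both called moved in 1 direction.

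Against the isotype antibody 24.7% of tested members without overlap were called, 24.1% of those with exons on coding exons and 39.6% of 48 with overlapping spans but no overlapping exons. Of 53 with overlapping spans whose exons could not be checked, 18 were called. The share of members called rose with the level. Tested members had a median of 1.98 CPM, and tested coding genes 21.9. Per kilobase of exon the medians were 1.37 and 7.69 CPM. Under 1 CPM, 11.9% of 235 members were called against the isotype antibody, beside 15.8% of coding genes. From 1 to 5 CPM the shares were 23.0% and 35.9%, from 5 to 20 CPM 42.1% and 33.4%, and over 20 CPM 54.2% of 83 members and 43.6% of coding genes. Among members of the lncRNA class over 20 CPM, 48.7% of 39 were called. No test of the difference between members and coding genes was made.

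**Figure D5:**
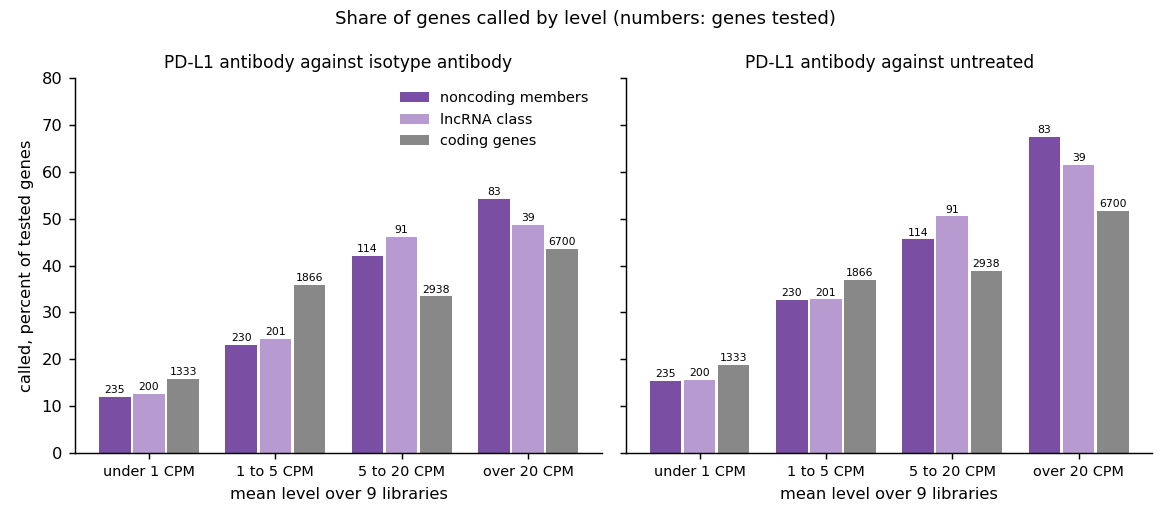
Percent of tested genes called between PD-L1 and isotype antibody, by mean level in CPM, for all noncoding members, members of the lncRNA class and coding genes, with the number tested on each bar. The shares of members rise from 11.9% under 1 CPM to 54.2% over 20 CPM, and those of coding genes from 15.8% to 43.6%.

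The isotype antibody against no antibody gave the background of the culture with an unrelated antibody. None of the 662 tested members was called by limma, edgeR, DESeq2 or limma-voom, beside 0.00728% of all genes called by limma. At an unadjusted p under 0.05 there were 65 members by limma, 61 by edgeR, 60 by DESeq2 and 78 by limma-voom. The share of all genes is at the adjusted threshold, so it is no measure for these unadjusted counts. Without untreated 7, 33 members were higher and 31 lower with the isotype antibody among 692 tested, beside 16.4% of all 13983 genes tested (9.58% higher and 6.85% lower). Among them were host genes: Snhg6 differed by -0.87 (adjusted p = 0.00442) and Snhg3 by -0.82 (adjusted p = 0.00495). Snhg3 measured 6.47, 5.64 and 4.72 CPM in the isotype libraries, 5.83 in untreated 7 and 9.84 and 11.5 in untreated 8 and 9. The rows of Xist and Tsix, whose reads cannot be told apart where they overlap, were higher in the isotype libraries than in untreated 8 and 9.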

How the data were processed

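Each of 9 deposited tables, 1 per library (3 PD-L1 antibody, 3 isotype antibody, 3 untreated), gives per RefSeq transcript the counts of reads over its span, introns included, the average coverage of its exons, and the percent of exonic bases covered at least 1-fold and 20-fold, per the file headers. Partek and STAR appear in the submitters' processing notes without versions. How multimapping reads were assigned is not given in the sources used here. Coordinates matched RefSeq on GRCm38.

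Deposited coverage was multiplied by exon length and divided by 150, the highest transcript per symbol was kept, and genes were filtered with filterByExpr and scaled by TMM (edgeR 4.0.16, R 4.3.3). Group differences were tested with limma 3.58.1 (trend, 3 group means, 9 libraries) on log2(CPM + 1), two-sided, with Benjamini-Hochberg adjustment over all 13728 tested genes, and the code was tested on simulated data. Alternatives used DESeq2 1.42.0, edgeR and limma-voom. The counts of read equivalents are not independent molecules.

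Members and lists were chosen with earlier results of these data known. Named were tested members of the fixed lists, the 10 largest non-overlapping rises and falls per comparison with a mean of at least 1 CPM in the higher group, the 10 highest per kilobase, and their paired coding genes. RefSeq classes matched 2210 members by accession and 22 by symbol. GENCODE exon models were found for 2076 members. Promoter windows were used for 442 tested members whose row starts within 1000 bases of the RefSeq start.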

Additional observations from a re-analysis of the deposited data

How the results depend on the processing

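The count of 174 members called against the isotype antibody became 109 at an adjusted p of 0.01, 77 in members whose span overlaps no coding span and 53 in lncRNA-class members with no coding overlap, a setting added after seeing the data. The higher calls became 52, 34 and 22 and the lower calls 57, 43 and 31 there, and 146 lower with scaling by total count. Against no antibody the calls became 136, 111 and 73, the higher calls 57, 42 and 24, and the lower calls 79, 69 and 49. The cause was not tested beyond the smaller sets. Leaving out 1 library at a time gave 133 to 202 calls against the isotype antibody (62 to 87 higher, 70 to 115 lower), 162 to 262 against no antibody (66 to 111, 96 to 151), and 0 to 64 between isotype antibody and none (0 to 33, 0 to 31), where 64, 33 and 31 came without untreated 7. Airn reversed on deposited span reads, to -0.40 and -0.36; the cause was not tested. Of the named members called, 33 of 43 against the isotype antibody and 38 of 55 against none kept their call under every alternative. No paired analysis was possible because the library numbers 1 to 9 are not shared between groups. Members near 1 read equivalent, 0.0247 to 0.0446 CPM, limit what 1585 untested members can show.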

Other observations

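The 4 symbols beginning with Mir that are not hairpins were dropped by the rule and are given here as values. Mirt1 measured 0.592, 0.330 and 0.0550 CPM with the PD-L1 antibody, 1.11, 0.584 and 1.04 with the isotype antibody and 0.848, 1.01 and 0.642 with none, with differences of -0.54 (adjusted p = 0.0360 by limma) and -0.48 (adjusted p = 0.0489). Mirt2 measured 0.248, 0.549 and 0.312, then 0.253, 0.364 and 0.145, then 0.0767, 0.0826 and 0.0432 CPM and was too low to be tested. Mira was not called against the isotype antibody (difference -0.09) and was called lower against none (difference -0.33, adjusted p = 0.0396), at levels of at most 0.420 CPM. Mirg stayed under 0.221 CPM.

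Listed members too low to be tested included Hotair (highest library 0.0545 CPM), Ptgs2os (0.168 CPM), H19 (0.977 CPM), Meg3 (0.559 CPM), Miat (0.566 CPM) and Terc (0.140 CPM). Of 131 opposite-strand transcripts 50 were tested, and 6 were higher and 6 lower with the PD-L1 antibody than with the isotype antibody. Of 638 members with a Gm number 185 were tested (28 higher, 25 lower), and of 1114 with a RIKEN symbol 298 (28 higher, 38 lower). Of those tested, 24.0% of the opposite-strand transcripts, 28.6% of the Gm members and 22.1% of the RIKEN members were called, all below the 36.4% of all tested genes.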
